A study of Mus musculus with 24 samples.

Results

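The collagen genes were all 44 rows of the count table whose symbol has the form Col, a number, a and a second number, out of 40836 genes. They comprised 11 fibrillar, 8 basement membrane, 9 network, 4 transmembrane and 9 fibril-associated collagens, and 3 others. All 44 were among the 20437 genes that passed the filter on low counts. The data were bulk RNA sequencing of mouse brain, with 24 libraries of polyadenylated RNA in 6 groups of 4. The groups were named by an E code and a time code: E4-05, E3-05, E4-10, E3-10, E4-15 and E3-15. The series title concerns ApoE4 and microglial lipids in Alzheimer's disease. The labels do not spell out the E codes, the time codes, the strain, the age or any treatment. Titles name a month from January to June, with separate months for each time code, so time code and month cannot be told apart.

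Collagens are trimeric extracellular or membrane-bound proteins with a triple helix of Gly-X-Y repeats. In the brain the basement membranes of vessels, pia and choroid plexus hold type IV collagen with types XV and XVIII, and fibroblasts of the meninges and of large vessels make most of the fibrillar types I and III. Transmembrane collagens sit in the plasma membrane and can be shed, and some are made by neurons. The labels do not say which cells or brain region a library holds.

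The labels call every library brain, yet 8 libraries stood apart. They are those in columns of the count table whose number is a multiple of 3, and they are called hindbrain-rich here for their transcripts. Gabra6, a GABA receptor subunit of cerebellar granule cells, had a lowest, median and highest value of 85.5, 376 and 533 CPM (counts scaled to a common library size with TMM factors, which offset differences in composition) in these 8 libraries, against 0, 0.212 and 4.63 CPM in the other 16. Summed over 12 cerebellar and hindbrain markers the range was 1134 to 4976 CPM in the 8 libraries, against 43.4 to 221 CPM in the other 16. Groups E3-10 and E4-15 held 2 of them each and every other group held 1. Total counts ran from 37366013 to 99501989 per library, and collagens took 0.0346 to 0.0613% of them (median 0.0472%). In all, 5 libraries were doubted for blood or pituitary transcripts, with Hbb-bs over 100 CPM in E4-05 1, E3-05 1 and E3-05 2, and Gh over 1000 CPM in E4-10 2 and E3-05 4. Of these, E3-05 2 and E4-10 2 are also hindbrain-rich. The labels name the libraries biological replicates and do not say which animals they came from. The tests therefore judge a difference against the spread left between these libraries, which may not be a spread between animals. The main fit had no term for month.

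The promoter windows of 4 collagens are shown because the results turn on their genes: the head-to-head pair Col4a1 and Col4a2, the highest basement membrane chains, and Col18a1 and Col25a1, which differed most in opposite directions among the abundant members. Each window spans 250 bases before to 50 after a RefSeq start in build GRCm38.p6, a different build from the one the reads were aligned to, and is written 5′ to 3′ on the gene's strand. Capitals mark 3 motifs searched on either strand. They were the CCAAT box (ATTGG on the reverse strand), the GC box core GGGCGG (its reverse complement being CCGCCC) and the TATA box TATAAA (read from the opposite strand as TTTATA). Col4a1 lies at chr8:11312777-11313076 on the minus strand and Col4a2 at chr8:11312555-11312854 on the plus strand, so their windows share 78 bases. Col18a1 has 2 starts on the minus strand, an upstream one at chr10:77166481-77166780 and a downstream one at chr10:77113656-77113955. Col25a1 lies at chr3:130180595-130180894 on the plus strand.
Col4a1: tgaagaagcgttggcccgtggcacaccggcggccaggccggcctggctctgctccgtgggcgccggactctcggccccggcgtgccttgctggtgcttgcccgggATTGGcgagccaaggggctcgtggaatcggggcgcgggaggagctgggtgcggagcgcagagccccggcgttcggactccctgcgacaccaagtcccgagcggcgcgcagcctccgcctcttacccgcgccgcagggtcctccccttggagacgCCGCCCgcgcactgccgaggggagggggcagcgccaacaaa
Col4a2: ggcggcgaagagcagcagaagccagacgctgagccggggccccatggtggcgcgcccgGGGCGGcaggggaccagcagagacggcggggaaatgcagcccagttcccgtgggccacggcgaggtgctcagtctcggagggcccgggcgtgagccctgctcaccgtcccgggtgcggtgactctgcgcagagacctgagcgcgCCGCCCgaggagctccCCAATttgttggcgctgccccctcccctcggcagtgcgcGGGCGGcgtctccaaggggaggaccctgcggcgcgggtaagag
Col18a1 upstream start: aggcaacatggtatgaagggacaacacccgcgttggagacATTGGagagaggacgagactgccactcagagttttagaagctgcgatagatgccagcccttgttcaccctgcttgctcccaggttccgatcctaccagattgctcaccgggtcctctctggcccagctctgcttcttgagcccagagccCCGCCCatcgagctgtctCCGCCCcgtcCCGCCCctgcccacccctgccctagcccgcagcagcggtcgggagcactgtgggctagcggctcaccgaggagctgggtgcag
Col18a1 downstream start: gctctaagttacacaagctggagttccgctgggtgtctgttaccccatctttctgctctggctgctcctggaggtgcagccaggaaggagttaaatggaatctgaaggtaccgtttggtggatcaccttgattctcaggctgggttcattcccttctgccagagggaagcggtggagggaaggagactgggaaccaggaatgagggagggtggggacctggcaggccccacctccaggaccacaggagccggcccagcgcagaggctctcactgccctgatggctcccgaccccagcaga
Col25a1: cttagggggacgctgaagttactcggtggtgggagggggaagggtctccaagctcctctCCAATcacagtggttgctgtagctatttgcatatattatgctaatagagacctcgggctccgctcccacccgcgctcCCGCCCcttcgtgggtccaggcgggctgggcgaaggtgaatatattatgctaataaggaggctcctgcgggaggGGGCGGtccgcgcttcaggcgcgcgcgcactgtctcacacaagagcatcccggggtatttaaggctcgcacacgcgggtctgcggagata

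The Col4a1 window held 1 CCAAT and 1 GGGCGG match, and the Col4a2 window 1 and 3. The GGGCGG match of Col4a1 and the last one of Col4a2 are the same site, within the 78 shared bases. The upstream Col18a1 window held 1 CCAAT and 3 GGGCGG matches, while its downstream window held none of these letters. The Col25a1 window held 1 CCAAT and 2 GGGCGG matches. RefSeq windows were found for 35 of the 44 members, 38 windows in all. GGGCGG was in 60.5% of these 38 windows, against 35.7% of all 32851 windows of the same length. Some collagen windows overlap, so a site can be counted in more than 1 of them. CCAAT was in 34.2% of the collagen windows, against 37.4% of all. TATAAA was in 13.2% of the collagen windows, against 13.6% of all. These are matches of letters and say nothing of binding.

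Levels between genes were compared as CPM per kilobase of exon, with exon lengths from GENCODE M21. The order of genes therefore depends on the annotated exon length as well as on the counts. Over the 24 libraries the highest were Col4a2 at 6.91 ± 1.21 and Col4a1 at 5.17 ± 0.852 CPM per kb (SD, n = 24), the chains of the common heterotrimer of vascular basement membrane. Between them lay Col25a1 at 5.36 ± 2.48 CPM per kb, a transmembrane collagen made by neurons whose shed ectodomain is found in amyloid plaques. Col9a3, a chain of the fibril-associated collagen IX best known from cartilage, averaged 4.73 ± 2.37 CPM per kb. Col6a1, a chain of beaded-filament collagen VI, averaged 4.24 ± 2.08 CPM per kb. Among fibrillar collagens the type I chains led, with Col1a1 at 3.45 ± 1.37 and Col1a2 at 2.90 ± 0.960 CPM per kb. Their order rests on exon lengths of 6563 bases for Col1a1 and 12426 bases for Col1a2. Without division by length Col1a2 was the higher. Its mean was 46.4 CPM in the hindbrain-rich libraries, against 27.5 CPM for Col1a1. In the other libraries the means were 30.8 CPM for Col1a2 and 20.3 CPM for Col1a1. Each gap between neighbours in the order by CPM per kb was smaller than the larger of their SDs. The lowest members were Col10a1 at 0.0815 and Col6a6 at 0.0692 CPM per kb.

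**Figure D1:**
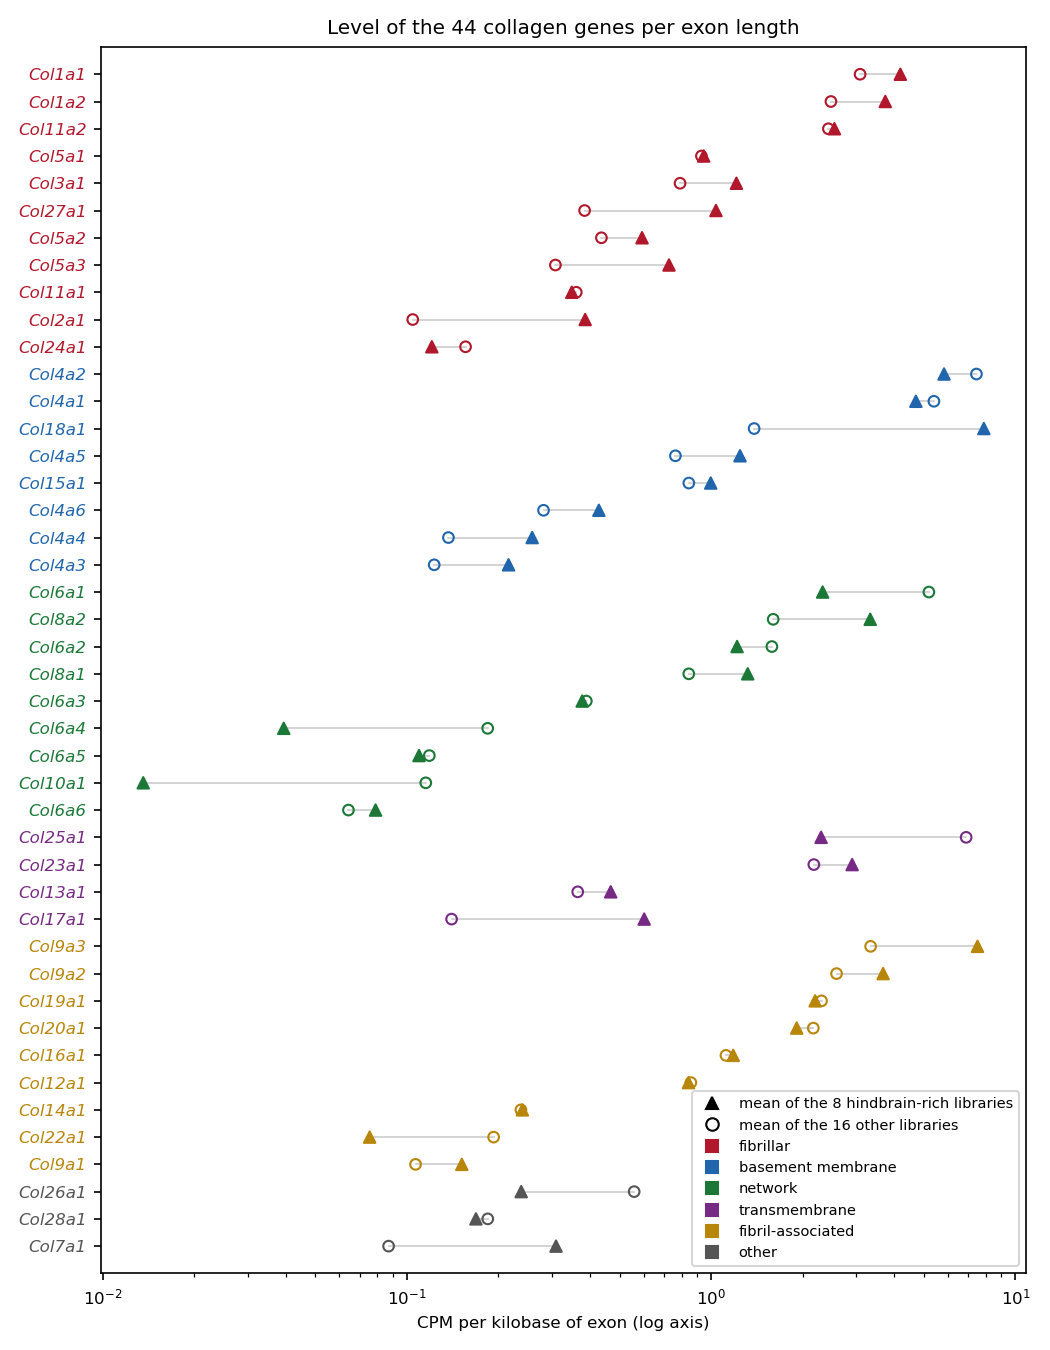
Level of the 44 collagen genes in CPM per kilobase of exon (log axis), as the mean of the 8 hindbrain-rich libraries (triangles) and of the 16 other libraries (circles), coloured and grouped by class. Col18a1 was the highest collagen in the hindbrain-rich libraries at 7.88 CPM per kb and lay at 1.38 CPM per kb in the others.

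The order depended on which libraries were read. By CPM per kb Col18a1 was first of 44 in the hindbrain-rich libraries, against 15th in the others. By the same measure Col25a1 was number 12 in the hindbrain-rich libraries, against number 2 in the others. In CPM, the 4 transmembrane collagens summed to a median of 51.1 (range 40.1 to 72.4) in the hindbrain-rich libraries, against 106 (77.8 to 129) in the others. They made up a median 9.84% of all collagen CPM in the hindbrain-rich libraries, against 23.6% in the others. The basement membrane class summed to a median of 148 CPM (123 to 190) in the hindbrain-rich libraries, against 114 CPM (92.2 to 147) in the others. Within it Col18a1 had by far the largest gap, with medians of 57.3 CPM in the hindbrain-rich libraries and 9.04 CPM in the others. In the same order Col4a1 (36.6 and 39.7 CPM) and Col4a2 (39.2 and 46.5 CPM) had lower medians, and the rest of the class higher ones. The fibrillar class summed to a median of 148 CPM (107 to 179) in the hindbrain-rich libraries, against 99.5 CPM (71.1 to 150) in the others. The fibril-associated class had medians of 92.9 CPM in the hindbrain-rich libraries and 70.3 CPM in the others, while the network class had 53.1 CPM and 53.5 CPM in the same order of libraries. All collagens together had a median of 498 CPM (411 to 579) in the hindbrain-rich libraries and 460 CPM (375 to 554) in the others. The transmembrane sums did not overlap between the library sets, and those of the other classes did. Most of the transmembrane sum in the other libraries was Col25a1, with medians of 23.8 CPM in the hindbrain-rich libraries and 90.1 CPM in the others. Col13a1, Col17a1 and Col23a1 had higher medians in the hindbrain-rich libraries, so the fall is not one of the whole class.

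In the hindbrain-rich libraries 25 of the 44 collagens differed from the other 16 libraries: 17 were higher and 8 lower (edgeR quasi-likelihood test, Benjamini-Hochberg adjusted p under 0.05 over all 20437 genes). The same test called 57.5% of all genes, 30.1% higher and 27.4% lower, so the collagens' share is near the background. Called and past 2-fold were 13 of 44, against 17.4% of all genes. At an unadjusted p under 0.05 there were 28 of 44, against 61.8% of all genes. The CPM of the library sets did not overlap for 7 members, 4 higher and 3 lower, against 13.7% of all genes (5.97% higher and 7.72% lower).

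**Figure D2:**
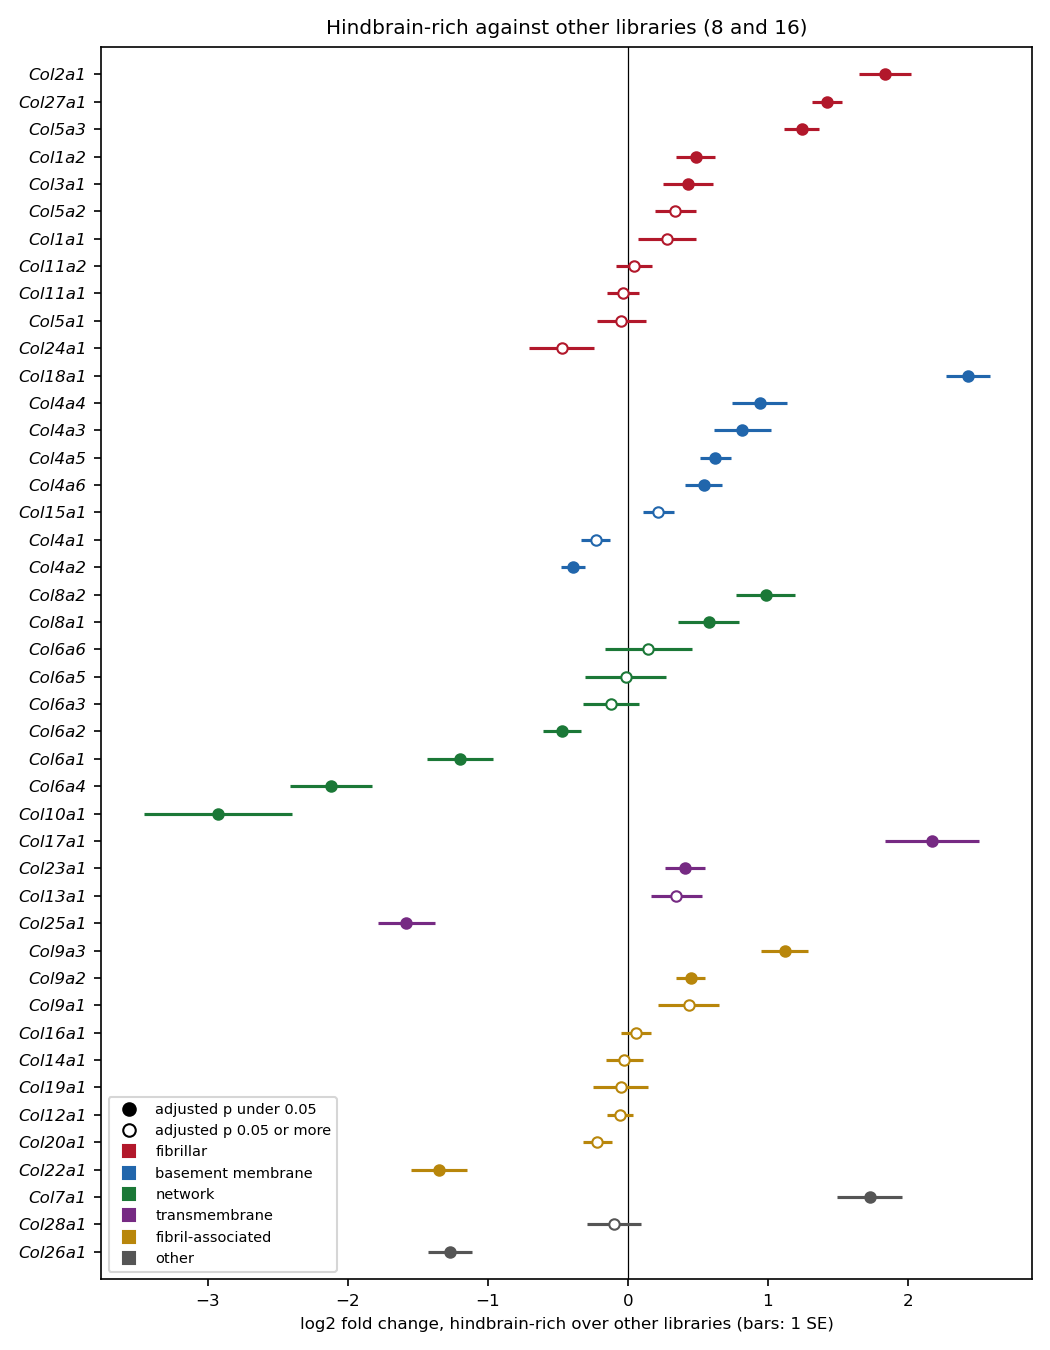
Log2 fold change of each collagen, hindbrain-rich over other libraries (8 and 16), with bars of 1 SE, grouped by class; filled points have an adjusted p under 0.05. Col18a1 at 2.43 and Col10a1 at -2.93 are the ends of the range.

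Of the fibrillar collagens 5 of 11 were higher and 0 lower (median log2 fold change, hindbrain-rich over other libraries, of 0.34, against 0.04 over all genes tested). Col2a1, the type II collagen best known from cartilage, had a lowest, median and highest value of 2.20, 3.28 and 6.27 CPM in the hindbrain-rich libraries, against 0.274, 0.970 and 1.48 CPM in the others. It was 3.57-fold higher (log2 fold change 1.84, standard error (SE) 0.18, edgeR adjusted p = 3.85e-08). Col27a1 had 9.82, 14.0 and 16.3 CPM in the hindbrain-rich libraries, against 3.61, 5.19 and 6.27 CPM in the others (log2 fold change 1.42, SE 0.11, adjusted p = 5.10e-10). Col5a3, a chain of type V collagen, had 3.30, 5.00 and 6.41 CPM in the hindbrain-rich libraries, against 1.49, 1.97 and 2.75 CPM in the others (1.24, SE 0.13, adjusted p = 4.04e-08). For these 3 genes the lowest hindbrain-rich library lay above the highest of the other 16. Col1a2 (0.49, SE 0.14) and Col3a1 (0.43, SE 0.18) were also higher, with overlapping values. The call for Col3a1 held in 15 of 31 other settings and was lost when any of several single libraries was left out. Col1a1 did not pass, at 15.0, 27.7 and 40.3 CPM in the hindbrain-rich libraries, against 9.45, 18.2 and 37.1 CPM in the others (0.28, SE 0.21, adjusted p = 0.253). Col5a1, Col5a2, Col11a1, Col11a2 and Col24a1 did not pass either, with log2 fold changes from -0.47 to 0.34.

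Of the basement membrane collagens 5 of 8 were higher and 1 lower (median 0.58). Col18a1, whose C-terminal fragment is endostatin, had 26.7, 57.3 and 77.3 CPM in the hindbrain-rich libraries, against 4.82, 9.04 and 14.7 CPM in the others. It was 5.38-fold higher (log2 fold change 2.43, SE 0.16, adjusted p = 8.32e-11), and every hindbrain-rich library exceeded every other library. Its value in each hindbrain-rich library was 55.8 (E4-05 3), 64.5 (E3-05 2), 41.5 (E4-10 2), 26.7 (E3-10 1), 58.8 (E3-10 4), 70.2 (E4-15 1), 77.3 (E4-15 4) and 47.5 CPM (E3-15 3). Gabra6 in the same libraries was 364, 388, 219, 85.5, 435, 533, 495 and 348 CPM. The 3 libraries lowest in Col18a1 were also the 3 lowest in Gabra6, and the 2 highest in one were the 2 highest in the other. Gabra6 is also a gene by which these libraries were named. Choroid plexus markers summed to 1910 (E3-10 1), 379 (E4-10 2) and 1101 CPM (E3-15 3) in the 3 lowest in Col18a1. In the 2 highest they summed to 919 (E4-15 1) and 1293 CPM (E4-15 4). The tie of Col18a1 to any marker was not tested. Col4a3 (0.82, SE 0.20) and Col4a4 (0.94, SE 0.19), chains of kidney glomerular basement membrane, and Col4a5 (0.63, SE 0.11) and Col4a6 (0.54, SE 0.13) were higher. Exons of Col4a3 overlap those of C430014B12Rik on the opposite strand over 5.65% of their length, and the strand setting of the counting is not given. Col4a2 was lower, at 29.8, 39.2 and 45.0 CPM in the hindbrain-rich libraries, against 39.9, 46.5 and 63.6 CPM in the others (log2 fold change -0.39, SE 0.09, adjusted p = 0.000688). Its neighbour Col4a1 did not pass, at 26.5, 36.6 and 42.0 CPM in the hindbrain-rich libraries, against 30.4, 39.7 and 51.7 CPM in the others (-0.23, SE 0.11, adjusted p = 0.0677). Col15a1 did not pass (0.22, SE 0.11).

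The transmembrane class moved in both directions. Col25a1 had 17.3, 23.8 and 55.3 CPM in the hindbrain-rich libraries, against 64.0, 90.1 and 114 CPM in the others. It was 2.99-fold lower (log2 fold change -1.58, SE 0.20, adjusted p = 1.26e-06), and no library of one set reached the other. Col23a1, the other abundant member of the class, had a median of 16.1 CPM in the hindbrain-rich libraries and 12.1 CPM in the others (0.41, SE 0.15, adjusted p = 0.0211, called in 26 of 31 other settings). Col17a1, known as a hemidesmosome collagen of skin, had 1.66, 4.13 and 5.14 CPM in the hindbrain-rich libraries, against 0.259, 0.707 and 1.92 CPM in the others (2.17, SE 0.33, adjusted p = 1.14e-05). The sets overlapped for Col17a1, because its lowest hindbrain-rich value lay under the highest of the others. Col13a1, known from the neuromuscular junction, did not pass (0.35, SE 0.18).

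**Figure D3:**
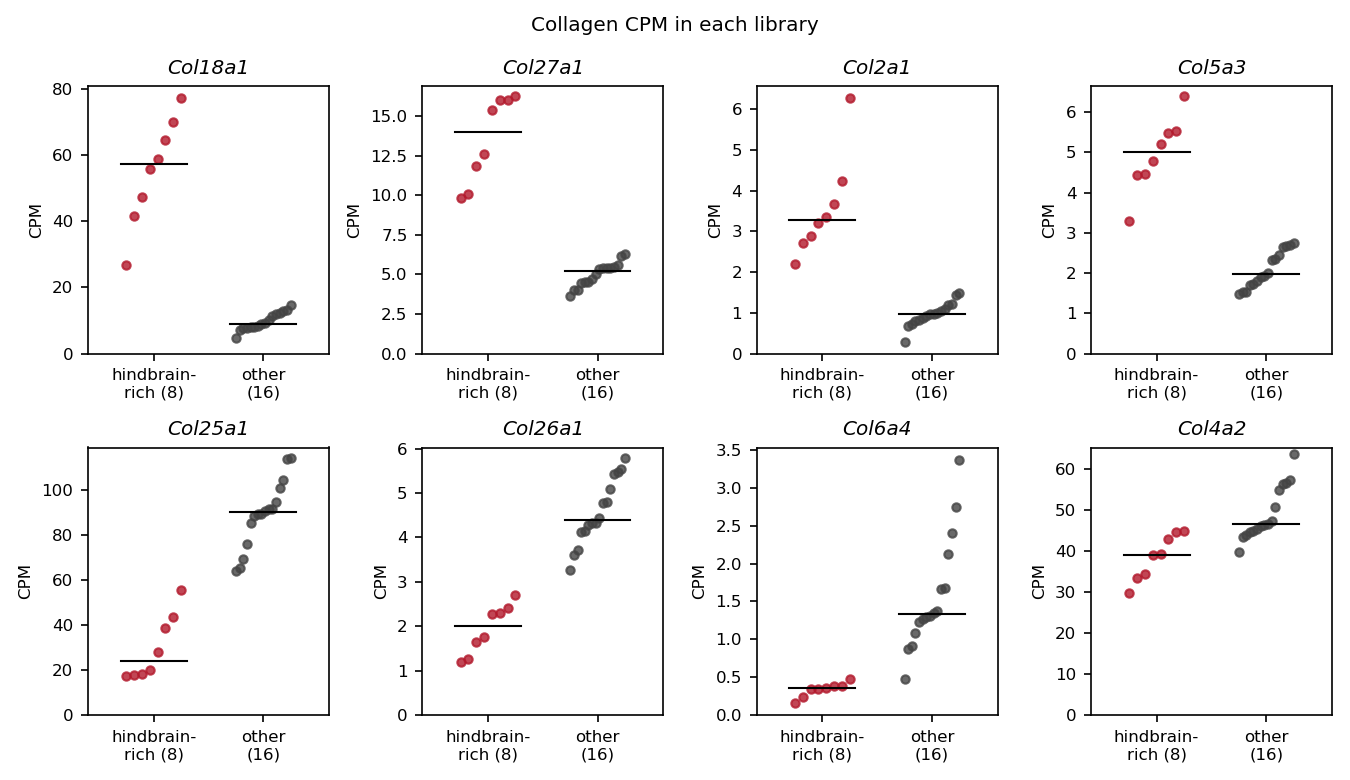
CPM of 8 collagens in each library, 8 hindbrain-rich libraries on the left and 16 other libraries on the right of each panel; each point is a library, in order of its value, and the line is the median. Col18a1, Col27a1, Col2a1 and Col5a3 lie wholly above, Col25a1, Col26a1 and Col6a4 wholly below the other libraries, and Col4a2 overlaps. The gap of Col6a4 is narrow, at 0.478 against 0.482 CPM.

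Of the 9 network collagens 2 were higher and 4 lower (median -0.12). The collagen VIII chains, known from the endothelial basement membrane of the cornea, were both higher, Col8a2 with 0.98 (SE 0.21) and Col8a1 with 0.58 (SE 0.22), the call for Col8a1 holding in 23 of 31 other settings. Col6a4 had 0.159, 0.351 and 0.478 CPM in the hindbrain-rich libraries, against 0.482, 1.33 and 3.37 CPM in the others (-2.12, SE 0.29, adjusted p = 2.82e-06), with no overlap. The gap was narrow, from 0.478 CPM (33 counts, E3-05 2) to 0.482 CPM (24 counts, E4-10 1). Hindbrain-rich libraries held 8 to 33 counts of Col6a4. Col6a1 had 6.53, 10.5 and 15.1 CPM in the hindbrain-rich libraries, against 12.9, 21.3 and 42.1 CPM in the others (-1.20, SE 0.23, adjusted p = 0.000171). Col6a2 was lower as well (-0.47, SE 0.13), while Col6a3, the third chain of the common collagen VI heterotrimer, did not pass (-0.12, SE 0.20). Col10a1, the collagen of hypertrophic cartilage, was at 0 to 0.0724 CPM in the hindbrain-rich libraries, against 0.0649 to 0.813 CPM in the others (-2.93, SE 0.53, adjusted p = 7.71e-05). These are few counts, since its highest library held 38 counts. Col6a5 and Col6a6 did not pass.

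Among fibril-associated collagens 2 of 9 were higher and 1 lower (median -0.02). Col9a3 had 18.9, 30.7 and 37.5 CPM in the hindbrain-rich libraries, against 6.35, 13.8 and 20.1 CPM in the others (1.12, SE 0.17, adjusted p = 6.80e-06). The other collagen IX chains were Col9a2, which was higher (0.45, SE 0.10), and Col9a1, which did not pass (0.43, SE 0.22). Exons of Col9a3 overlap those of Tcfl5 on the opposite strand over 6.07% of their length, and the strand setting of the counting is not given in the sources used here. Col22a1, known from tissue junctions, had 0.449, 0.672 and 1.16 CPM in the hindbrain-rich libraries, against 0.873, 1.81 and 2.57 CPM in the others (-1.35, SE 0.20, adjusted p = 7.02e-06). Col12a1, Col14a1, Col16a1, Col19a1 and Col20a1 did not pass, with log2 fold changes from -0.22 to 0.06. Of the remaining 3, Col7a1, the anchoring-fibril collagen of skin, had 1.28, 3.46 and 5.14 CPM in the hindbrain-rich libraries, against 0.597, 0.786 and 1.72 CPM in the others (1.73, SE 0.23, adjusted p = 1.90e-06). Col26a1 had 1.19, 2.01 and 2.71 CPM in the hindbrain-rich libraries, against 3.26, 4.38 and 5.79 CPM in the others (-1.27, SE 0.15, adjusted p = 5.56e-07), with no overlap. Col28a1 did not pass.

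Genes that build collagen were also called in this comparison. Of 27 genes for collagen processing, 15 were higher and 4 lower (median 0.25). Bmp1, the procollagen C-proteinase, had 39.2 to 141 CPM in the hindbrain-rich libraries, against 22.3 to 33.9 CPM in the others (log2 fold change 1.82, SE 0.15). P3h3, a prolyl 3-hydroxylase family member, was at 1.12 (SE 0.10), Plod2, a lysyl hydroxylase, at 1.06 (SE 0.12), and P3h1 at 0.46 (SE 0.08). Of 9 collagen receptors tested 2 were higher and 2 lower, namely Itga10 (0.68, SE 0.15) and Itga2 (0.88, SE 0.26) against Itga11 (-0.69, SE 0.15) and Lair1 (-0.33, SE 0.08). Of 9 genes for collagen breakdown 3 were higher and 1 lower. The gelatinase gene Mmp9 (1.21, SE 0.13), Mmp8 (2.95, SE 0.53) and Mmp14 (0.45, SE 0.10) were higher, and the inhibitor gene Timp2 was lower (-0.70, SE 0.14). Of 15 partners in the basement membrane 3 were higher and 5 lower, among them Pxdn, which cross-links collagen IV (-1.57, SE 0.11), Agrn (-0.70, SE 0.05) and Lama3 (-1.10, SE 0.13). Of 12 other matrix partners 2 were higher, Lum (0.51, SE 0.11) and the collagen-binding Sparc (0.86, SE 0.18), and Fbln2 was lower (-0.42, SE 0.10). Of all genes 30.1% were higher and 27.4% lower, and the difference of these lists from that background was not tested.

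Markers of cell types moved with this comparison too. Choroid plexus markers were higher for 7 of 10 and lower for 0, and their sum ran from 379 to 3024 CPM (median 1409) in the hindbrain-rich libraries, against 23.6 to 1110 CPM (median 619) in the others. Meningeal and perivascular fibroblast markers were higher for 3 of 10 and lower for 1, and the largest, Zic1 (2.85, SE 0.27), is also a gene of cerebellar granule cells. Without Zic1 the sum ran from 247 to 445 CPM in the hindbrain-rich libraries, against 216 to 441 CPM in the others. Igf2 alone had 116 to 293 CPM in the hindbrain-rich libraries, against 87.1 to 241 CPM in the others, so this sum is weighted to 1 gene. This sum still holds Pdgfra, which is also in the list of oligodendrocyte precursor markers. Pdgfra had 38.6 to 54.4 CPM in the hindbrain-rich libraries, against 60.4 to 88.3 CPM in the others, so the sum does not measure fibroblasts alone. Mural markers (1 of 9 higher, 2 lower) summed to 380 to 511 CPM in the hindbrain-rich libraries, against 378 to 543 CPM in the others. Endothelial markers (0 of 10 higher, 1 lower) summed to 323 to 470 CPM in the hindbrain-rich libraries, against 334 to 445 CPM in the others. Forebrain neuron markers were lower for 10 of 10, at 164 to 488 CPM in the hindbrain-rich libraries, against 404 to 1277 CPM in the others. Microglial markers were lower for 8 of 8, at 149 to 239 CPM in the hindbrain-rich libraries, against 280 to 419 CPM in the others, with no overlap. Oligodendrocyte precursor markers were lower for 4 of 6, at 286 to 391 CPM in the hindbrain-rich libraries, against 511 to 641 CPM in the others, again with no overlap. None of the markers in these lists was at 0 in all libraries of either set. The part of these markers in the collagen differences was not tested, and in bulk RNA fewer cells of a type and less RNA per cell cannot be told apart.

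Between E4 and E3 libraries no collagen passed. The counts were 0 of 44 at time code 05 (background 0%), 0 of 44 at time code 10 (background 0.00979%), 0 of 44 at time code 15 (background 0%) and 0 of 44 averaged over time codes (background 0%) in edgeR, and 0 in each with DESeq2 and with limma-voom. At an unadjusted p under 0.05 edgeR had 2, 10, 2 and 0 of the 44 in these comparisons, against 2.69%, 5.01%, 1.91% and 2.73% of all genes. In simulated counts the same test found 34 of 100 genes that had been set 2-fold apart between E4-10 and E3-10. It found 71 of 100 that had been set 4-fold apart. The simulated spread was not checked against the spread left after the hindbrain term. These shares therefore cannot be read as the power of the test on the real counts.

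At time code 10 the values of most collagens lay lower in E4-10 than in E3-10 without passing the test: 32 of 44 log2 fold changes were below 0 (median -0.25), against 50.5% of all genes (median 0.00). Below 0 were 9 of 11 fibrillar (median -0.15), 8 of 8 basement membrane (-0.29), 7 of 9 fibril-associated (-0.33), 6 of 9 network (-0.34) and 1 of 4 transmembrane collagens (0.18). With 1 library left out at a time the medians ran from -0.35 (without E4-10 2) to -0.08 (without E4-10 3) for fibrillar and from -0.46 to -0.16 (without the same libraries) for basement membrane collagens. They ran from -0.42 (without E3-10 3) to -0.11 (without E3-10 1) for network collagens, and the transmembrane median was -0.17 without E4-10 4. Col3a1, the fibrillar collagen of reticular fibres, had 5.60, 7.85, 4.96 and 8.54 CPM in the E4-10 libraries, against 14.5, 12.8, 12.9 and 13.5 CPM in the E3-10 libraries (log2 fold change -0.90, SE 0.29, adjusted p = 0.762). Col1a2 had 27.3, 40.3, 22.0 and 30.2 CPM in the E4-10 libraries, against 47.9, 48.1, 44.7 and 55.5 CPM in the E3-10 libraries (-0.62, SE 0.22, adjusted p = 0.880). Its partner chain Col1a1 had 18.1, 20.9, 13.3 and 19.6 CPM in the E4-10 libraries, against 23.6, 33.3, 31.7 and 32.6 CPM in the E3-10 libraries (-0.71, SE 0.33, adjusted p = 0.943). In all 3 the groups did not overlap. The same was so for Col5a2 and for Col14a1, a fibril-associated collagen with 1.12, 1.38, 1.55 and 1.94 CPM in E4-10, against 2.04, 2.19, 2.25 and 2.14 CPM in E3-10 (-0.53, SE 0.21, adjusted p = 0.943). In all, 5 of 44 collagens were without overlap and lower in E4-10 and 0 higher, against 1.86% of all genes (1.31% lower and 0.553% higher). At time code 05 there were 0 such members, against 0.910% of all genes (0.362% lower and 0.548% higher). At time code 15 there were 0 as well, against 1.10% of all genes (0.509% lower and 0.587% higher). Unlike the log2 fold changes, these overlap counts use CPM without the hindbrain term. Hindbrain-rich libraries numbered 1 in E4-10 and 2 in E3-10.

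**Figure D4:**
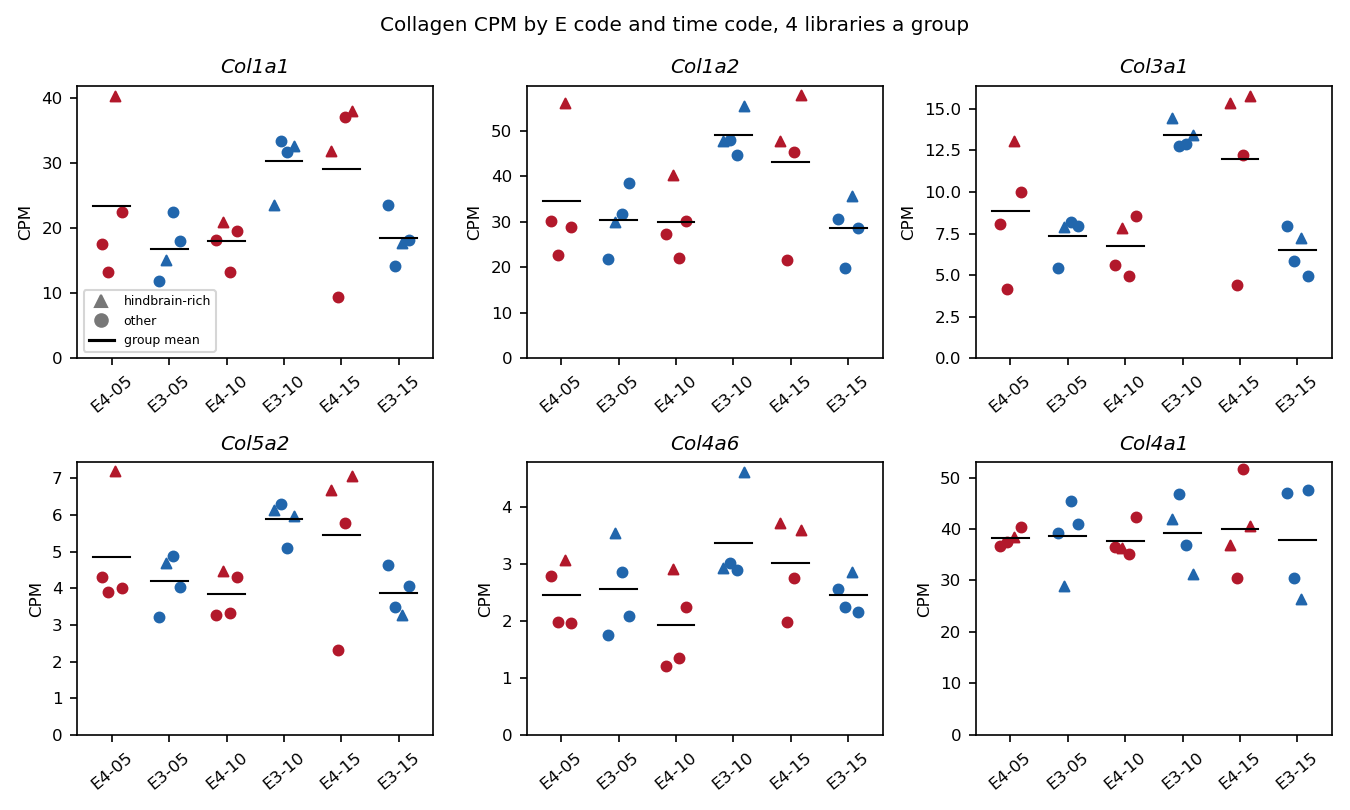
CPM of 6 collagens in each library by group, with the E4 group left of the E3 group of each time code; triangles are hindbrain-rich libraries, circles the others, and the line is the group mean (n = 4). Col3a1 lay between 4.96 and 8.54 CPM in E4-10 and between 12.8 and 14.5 CPM in E3-10.

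The smallest p at time code 10 belonged to Col4a6, a minor basement membrane chain, which had 1.20, 2.92, 1.34 and 2.25 CPM in E4-10, against 2.93, 3.03, 2.90 and 4.62 CPM in E3-10 (-0.71, SE 0.21, adjusted p = 0.628). Library E4-10 2 lay above the lowest E3-10 library. The abundant basement membrane chains lay close together, with Col4a1 at 36.5, 36.4, 35.1 and 42.3 CPM in E4-10, against 42.0, 46.8, 36.8 and 31.3 CPM in E3-10 (-0.12, SE 0.17). Among the 16 libraries that are not hindbrain-rich, which leave 3 E4-10 and 2 E3-10 libraries, the log2 fold changes were -1.01 for Col3a1, -0.81 for Col1a2, -0.53 for Col14a1 and -0.89 for Col4a6 (adjusted p = 0.949 each).

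Other genes of the pathway lay the same way, again with 0 called in any list. Of 12 matrix partners 11 were below 0 in E4-10 against E3-10 (median -0.67), with the small proteoglycan genes Ogn at -0.90 (SE 0.18, adjusted p = 0.110), Lum at -0.82 (SE 0.17, adjusted p = 0.163) and Fmod at -0.89 (SE 0.21, adjusted p = 0.256). Of 27 processing genes 22 were below 0 (median -0.14), with the procollagen C-proteinase enhancer gene Pcolce at -0.84 (SE 0.20) and the lysyl oxidase family gene Loxl2 at -1.11 (SE 0.36). Basement membrane partners were below 0 for 12 of 15 (median -0.26; Lamb2 -0.35, SE 0.08), receptors for 6 of 9 (-0.14; the collagen uptake receptor gene Mrc2 -0.64, SE 0.17) and breakdown genes for 7 of 9 (-0.24; Mmp14 -0.45, SE 0.15). Cell markers moved alongside: fibroblast markers were below 0 for 10 of 10 (median -0.58), choroid plexus markers for 10 of 10 (-1.06), mural markers for 8 of 9 (-0.20) and endothelial markers for 8 of 10 (-0.14). Fibroblast markers without Zic1 summed to 216 to 284 CPM in E4-10, against 357 to 445 CPM in E3-10, with no overlap. This sum is weighted to Igf2, its most abundant member. Choroid plexus markers summed to 23.6 to 1039 CPM in E4-10, against 545 to 1910 CPM in E3-10. Mural markers summed to 380 to 440 CPM in E4-10, against 403 to 543 CPM in E3-10. Some lists lay the other way. Forebrain neuron markers summed to a median of 825 CPM in E4-10, against 522 CPM in E3-10. In the same order microglial markers had 356 and 259 CPM and oligodendrocyte precursor markers 564 and 459 CPM. All these sums are without the hindbrain term, and E3-10 held 2 hindbrain-rich libraries against 1 in E4-10. The smooth muscle actin gene Acta2 was at -1.16 (SE 0.21, adjusted p = 0.0818). The part of these markers in the collagen values was not tested.

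At time code 15, 27 of 44 log2 fold changes of E4-15 against E3-15 were above 0 (median 0.14, against 0.00 over all genes), 8 of 11 in the fibrillar class (median 0.35), 7 of 8 in the basement membrane class (0.16), 5 of 9 in the fibril-associated class (0.02), 4 of 9 in the network class (-0.05) and 2 of 4 in the transmembrane class (0.06). The basement membrane median was 0.04 without E3-15 3, 0.07 without E4-15 3 and 0.26 without E3-15 1 or E4-15 2. Col3a1 had 15.4, 4.43, 12.2 and 15.8 CPM in E4-15, against 7.98, 5.88, 7.24 and 4.96 CPM in E3-15 (0.72, SE 0.29, adjusted p = 1.00). Library E4-15 2 was the lowest of all 8 and the other E4-15 libraries were the 3 highest, 2 of them hindbrain-rich. Col1a2 had 47.9, 21.5, 45.5 and 58.0 CPM in E4-15, against 30.5, 19.9, 35.6 and 28.8 CPM in E3-15 (0.45, SE 0.23). The fibril-associated Col9a2 was at 0.36 (SE 0.17) and Col6a6 at 1.00 (SE 0.49). At time code 05, 26 of 44 were above 0 (median 0.09), and the smallest p belonged to Col11a1 (0.39, SE 0.18), Col6a6 (-0.98, SE 0.47), Col27a1 (-0.30, SE 0.17) and Col14a1 (0.32, SE 0.21). Fibroblast markers without Zic1 summed to 284 to 422 CPM in E4-15, against 271 to 288 CPM in E3-15, and to 291 to 443 CPM in E4-05, against 233 to 366 CPM in E3-05. These sums too are weighted to Igf2. Averaged over time codes 23 of 44 were above 0 (median 0.01), and the 4 with the smallest p were Col4a6 (-0.21, SE 0.12), Col2a1 (0.28, SE 0.18), Col4a4 (-0.29, SE 0.18) and Col6a5 (0.39, SE 0.27).

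**Figure D5:**
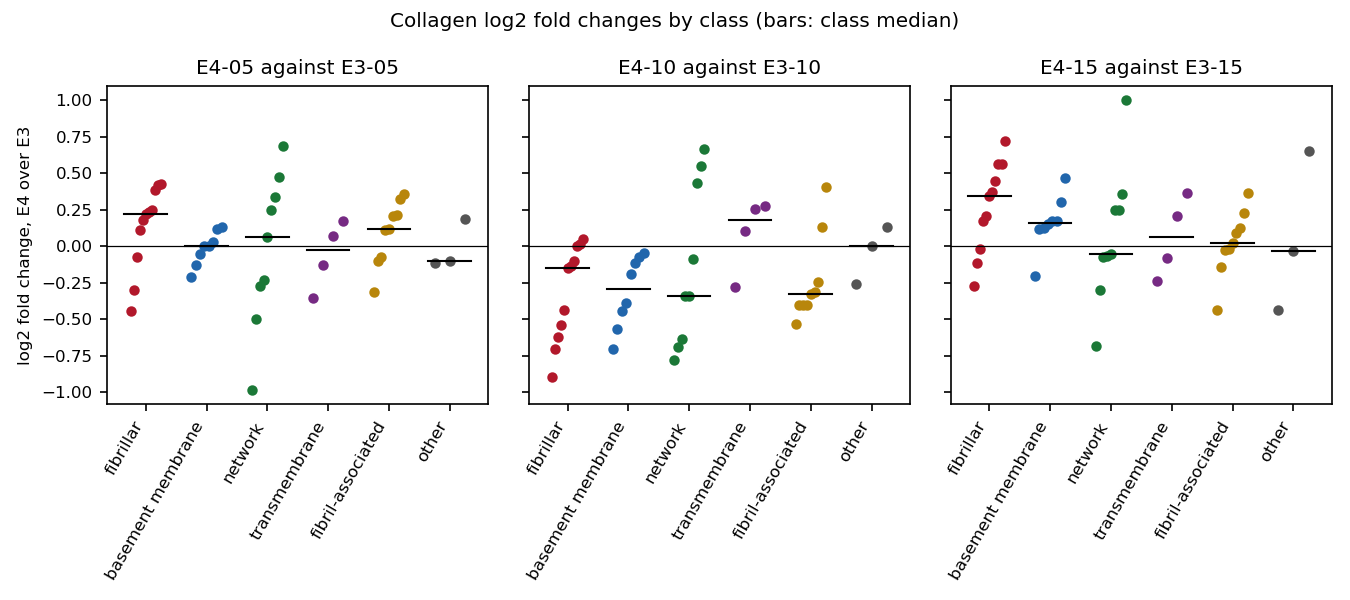
Log2 fold change of each collagen, E4 over E3, by class at each time code; each point is a gene and the line is the class median. At time code 10 the basement membrane points all lie below 0, and at time code 15 the fibrillar median is 0.35.

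The difference between these contrasts was tested itself. For E4 minus E3 at time code 15 against E4 minus E3 at time code 10, 0 of 44 collagens passed (background 0.00489%), with 10 of 44 at an unadjusted p under 0.05, against 2.79% of all genes. Above 0 were 34 of 44 (median 0.34), with 9 of 11 fibrillar (0.71), 8 of 8 basement membrane (0.31), 7 of 9 fibril-associated (0.34), 6 of 9 network (0.33) and 2 of 4 transmembrane collagens (-0.13), against a median of 0.01 over all genes. Col3a1 was at 1.62 (SE 0.41, adjusted p = 0.475 in edgeR), Col1a2 at 1.07 (SE 0.32), Col9a2 at 0.76 (SE 0.24) and Col4a6 at 0.83 (SE 0.30). In the 16 libraries that are not hindbrain-rich these values were 1.42 for Col3a1, 1.15 for Col1a2 and 0.91 for Col4a6. This comparison uses the same libraries as the contrasts at time codes 10 and 15 and adds no separate evidence. Matrix partners lay above 0 for 11 of 12 (median 0.84) and fibroblast markers for 10 of 10 (0.94), with 0 called. The differences of time code 10 from 05 and of 15 from 05 also had 0 of 44 called (background 0% each), with 9 and 2 of 44 at an unadjusted p under 0.05, against 5.24% and 2.75% of all genes. In the first the smallest p belonged to Col14a1 (-0.85, SE 0.30), Col3a1 (-1.12, SE 0.40), Col16a1 (-0.61, SE 0.24) and Col1a1 (-1.13, SE 0.47). In the second it belonged to Col6a6 (1.98, SE 0.68), Col6a2 (0.64, SE 0.29), Col11a1 (-0.50, SE 0.26) and Col27a1 (0.48, SE 0.25).

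Across time codes, averaged over E codes, 0 of 44 collagens passed for 10 against 05 (background 0%), 0 for 15 against 05 (background 0.0538%) and 0 for 15 against 10 (background 0.00489%). At an unadjusted p under 0.05 there were 1, 1 and 3 of 44, against 4.03%, 4.56% and 7.72% of all genes. Col14a1 was the member with the smallest p for 15 against 05 (-0.50, SE 0.15, adjusted p = 0.770) and for 15 against 10 (-0.45, SE 0.15, adjusted p = 0.563). It had 1.32, 1.54, 1.18 and 1.16 CPM in E4-15 and 1.82, 1.10, 1.08 and 1.29 CPM in E3-15. At time code 05 it had 1.69, 2.54, 2.36 and 1.72 CPM in E4-05 and 1.89, 1.97, 1.51 and 1.27 CPM in E3-05, so the time codes overlapped. Col24a1, a minor fibrillar collagen, had the smallest p for 10 against 05 (0.69, SE 0.26, adjusted p = 0.999). Next for 10 against 05 were Col5a3 (-0.28, SE 0.15), Col4a5 (0.24, SE 0.13) and Col6a5 (-0.44, SE 0.32), for 15 against 05 Col2a1 (-0.40, SE 0.22), Col4a5 (0.23, SE 0.13) and Col20a1 (0.19, SE 0.12), and for 15 against 10 Col20a1 (0.27, SE 0.12), Col9a3 (0.40, SE 0.19) and Col6a6 (-0.61, SE 0.34).

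After removal of group and hindbrain terms, the residual SD of log2 CPM had a median of 0.42 over the 44 collagens (range 0.21 to 0.91), against a median of 0.26 over all genes tested. Of the 44, 9 lay below that median, among them Col4a2 at 0.21 and Col4a1 at 0.25. Expression level was not matched in this comparison, and no test was made.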

How the data were processed

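RNA was extracted with TRIzol, and libraries were made with a NEBNext Ultra kit and sequenced on an Illumina NovaSeq, per the labels. The authors deposited 1 table of read counts, 1 row per symbol, not normalized. HISAT2 2.1.0, featureCounts 2.0.6 and mm39 are named in the submitters' processing notes, while the annotation and strand setting are not given in the sources used here. Among counts from 1 to 19, 62.6 to 70.8% per library were even, as when both reads of a pair are counted, so counts overstate the fragments. Each column was joined to its library by the number in its label.

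Genes were kept with edgeR's filterByExpr over the 6 groups. edgeR 4.0.16 (R 4.3.3) was fitted to all 24 libraries with TMM factors, 6 group coefficients and 1 term for the 8 hindbrain-rich libraries (17 residual degrees of freedom, coefficient of variation 22.5%). Quasi-likelihood tests were adjusted by Benjamini-Hochberg over 20437 genes at 0.05. CPM use TMM-scaled library sizes, and outliers were sought on log2 CPM with a prior count of 2. The fit was tested on simulated data. The collagens, gene lists, tests and the term were chosen with earlier results of these data known. Members named were, per comparison, at most 6 called higher and 6 called lower (largest fold first), or 4 by smallest p where fewer were called, and in each class the 2 with the highest CPM; Col1a1, Col5a2, Col13a1 and other members outside this rule were named after their values were seen. The same holds for the sum of fibroblast markers without Zic1. Alternatives were DESeq2 1.42.0, limma 3.58.1 (voom), other factors and filters, no term, fewer libraries and replicate blocks. Replicate numbers of E4 and E3 libraries were not used as pairs in the main fit, and whether they pair the samples was not settled. The values of 1 partner gene are not reported here.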

Additional observations from a re-analysis of the deposited data

Results flagged for a closer look

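For 28 collagens each group of 4 libraries was checked for 1 library far from the rest, on log2 CPM after removal of the hindbrain term, and so were the 8 hindbrain-rich libraries on CPM. In 6 of these 196 sets of values 1 library stood apart, and chance marks about 1 set in 20. Col24a1 was at 1.38 in E3-10 1, above the 0.19 to 0.37 of the other E3-10 libraries. Col25a1 was at 5.86 in E3-05 2, below the 6.47 to 6.56 of the rest of its group, and at 5.80 in E4-15 4, below 6.42 to 6.51. Both are hindbrain-rich libraries, with 18.3 and 17.6 CPM of Col25a1. Col3a1 was at 2.16 in E4-15 2, below 3.46 to 3.62. Col6a1 was at 3.76 in E3-10 3, below 4.58 to 4.63. Col9a2 was at 2.69 in E4-05 2, below 3.22 to 3.27. What sets these libraries apart was not tested.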

How the results depend on the processing

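The 25 collagens called between hindbrain-rich and other libraries became 22 to 27 over 31 other settings, 23 to 27 when each library was left out in turn and 22 without the 5 libraries high in Hbb-bs or Gh. DESeq2 called 27 and limma-voom 26. The other 10 comparisons had 0 collagens called in every setting run. Of those 25, 21 kept direction and call in every one, while Col3a1 was called in 15, Col8a1 in 23, Col23a1 in 26 and Col6a2 in 30 of 31. The 4 collagens with the smallest p in each of the other comparisons kept direction without a call in 1372 of 1372 values. They were picked by p in these same data, and most settings drop only 1 library, so this result was likely beforehand. In E4-10 against E3-10, Col1a1, Col5a2 and Col4a1 kept direction without a call in 35 of 35 settings each. Members not picked by p could turn, as Col27a1 kept direction in 16 of 35 settings and Col28a1 in 19 of 34. With the replicate number as a block the hindbrain-rich count was 25 and the E4 against E3 counts stayed at 0. Residual correlations of same-numbered E4 and E3 libraries of a time code ran from -0.22 to 0.17 (median 0.061), with 5 of 12 over 0.1. Those of differently numbered libraries ran from -0.30 to 0.22 (median -0.026), with 7 of 36 over 0.1. So few pairs cannot decide whether the numbers pair the samples. Class medians moved more. In E4-10 against E3-10 the fibrillar median was -0.43 without the hindbrain term and -0.49 in the 16 other libraries, against -0.15 as reported. The transmembrane median turned from 0.18 to -0.18 without the term, -0.12 with limma-voom, -0.35 with a term for each set of 3 adjacent columns and -0.17 without E4-10 4. In E4-15 against E3-15 the fibril-associated median turned to -0.13 without E3-15 3 and was 0.22 without E3-15 4. In the difference of time code 15 from 10 the transmembrane median, -0.13 as reported, turned to 0.60, 0.43, 0.34 and 0.28 without the term, with limma-voom, with the adjacent-column terms and without E4-10 4. The causes were not tested. Not run were, for the hindbrain-rich comparison, the settings that drop or replace its term or keep the 16 other libraries, and, for the time codes, the blocks within a time code and the adjacent-column terms. With 4 libraries a group, differences under 2-fold may be missed, and the simulation does not settle how often.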
